A study of Homo sapiens with 8 samples.

Results

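Open chromatin beside pseudogenes and beside no other kind of gene was examined in human HEK293 cells before and after hyperosmotic stress. A peak belonged to this set when it was autosomal and at most 1 kb separated it from one of the 2 ends of a gene whose RefSeq biotype contains the word pseudo, and not within 1 kb of an end of a gene of any other biotype. The rule selected 2066 of the 129536 peaks in the deposited count table (1.59%), and used positions only, not counts. These peaks lay at 1945 pseudogenes, of which 1527 are annotated simply as pseudogenes, 382 as transcribed pseudogenes, 32 as immunoglobulin or T cell receptor V segments, 2 as C regions and 2 as noncoding RNA pseudogenes. A single pseudogene was in reach of 1968 peaks, and 98 peaks had 2 or more. The pseudogene's own end fell inside 640 of the peaks, and 782 (37.9%) overlapped the body of a gene of another biotype.

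The assay was Omni-ATAC-seq: isolated nuclei are treated with a transposase that cuts and tags open chromatin. The 4 vehicle libraries and the 4 libraries of cells kept for 1 h in 0.2 M sorbitol all came from HEK293, an embryonic kidney cell line, with the genotype eGFP-YAP (YAP, the Hippo pathway co-activator, tagged with a green fluorescent protein), although the sample titles name HEK293 alone. The series description adds that cells were serum-starved for 1 h beforehand, so both groups share the tag and the starvation. The labels do not say whether the libraries of a group came from separate cultures, so the p-values measure only the spread between these samples.

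Pseudogenes are copies of genes that have lost the ability to make the original product. Processed pseudogenes arose when a messenger or small RNA was reverse transcribed and inserted elsewhere, so they usually lack the parent's promoter, whereas duplicated pseudogenes were copied with flanking DNA and may keep it, and nuclear copies of mitochondrial DNA came from the organelle genome. Because a copy can be nearly identical to its parent, a short read may fit both, and a peak at a pseudogene can hold reads that were made elsewhere. How reads that fit several places were treated is not given in the sources used here.

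None of the 1945 pseudogenes has an entry of its own in the RefSeq promoter table (build GRCh38.p14). However, 15 of the peaks overlapped the 250 bases upstream of an annotated start of another gene, with 17 such windows for 15 genes, none of them within 1 kb of an outer end of a gene that is not a pseudogene. Of these 15 peaks 6 were lower after sorbitol and 0 were higher (median log2 fold change -0.26). Over all tested peaks 13.1% were lower and 16.0% higher. Most of the 15 were strong, and in the strongest of 4 bins of pseudogene-end peaks 35.6% were lower and 12.4% higher. The count is therefore no result about peaks at such windows. A selection of 4 windows is printed to show what sequence such a peak covers, 3 in peaks that fell and 1 in a peak that was not called. Each is given 5′ to 3′ on the minus strand, the strand of its gene, and capitals mark every match, on either strand, to the GC box GGGCGG or the ETS core CCGGAAG. The first is chr17:752265-752514 upstream of GEMIN4 (a subunit of the SMN complex that assembles snRNPs) in the DBIL5P peak, the second chr7:65750925-65751174 upstream of LINC03006 in the CCT6P1 peak, the third chr14:23155321-23155570 upstream of a start of SLC7A8 (an amino acid transporter) in the RNU6-1138P peak, and the last chr10:87818227-87818476 upstream of ATAD1 (a mitochondrial AAA ATPase) in a CFL1P1 peak.
GEMIN4 window: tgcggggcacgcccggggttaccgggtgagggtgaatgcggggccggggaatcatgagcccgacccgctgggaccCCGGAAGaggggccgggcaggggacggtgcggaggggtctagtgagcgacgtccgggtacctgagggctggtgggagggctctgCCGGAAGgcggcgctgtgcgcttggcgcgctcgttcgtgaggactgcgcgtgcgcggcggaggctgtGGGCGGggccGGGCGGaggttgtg
LINC03006 window: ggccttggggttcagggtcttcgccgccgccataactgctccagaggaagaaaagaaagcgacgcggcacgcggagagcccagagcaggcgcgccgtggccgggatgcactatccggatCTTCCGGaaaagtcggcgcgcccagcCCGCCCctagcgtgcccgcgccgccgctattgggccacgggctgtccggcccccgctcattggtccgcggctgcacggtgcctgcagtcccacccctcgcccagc
SLC7A8 window: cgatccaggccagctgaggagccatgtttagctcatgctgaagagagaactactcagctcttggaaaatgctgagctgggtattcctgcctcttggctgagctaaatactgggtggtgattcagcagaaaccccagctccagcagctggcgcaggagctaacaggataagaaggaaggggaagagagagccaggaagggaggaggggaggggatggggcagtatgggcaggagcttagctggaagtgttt
ATAD1 window: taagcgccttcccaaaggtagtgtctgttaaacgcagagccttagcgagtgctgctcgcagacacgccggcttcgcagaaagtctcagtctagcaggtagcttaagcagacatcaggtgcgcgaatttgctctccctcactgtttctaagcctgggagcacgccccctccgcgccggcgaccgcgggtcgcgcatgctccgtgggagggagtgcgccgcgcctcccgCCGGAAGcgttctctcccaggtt
The GEMIN4 window held 2 GC boxes and 2 ETS cores, sharing no bases. LINC03006 held 1 of each, ATAD1 1 ETS core, and SLC7A8 neither. The GC box was in 42.6% of all 35116 windows and the ETS core in 8.52%, against 8 and 4 of the 17 windows in these peaks. The AP-1 site TGAGTCA was in 0 of the 17 and in 4.2% of all windows, and CCAAT in 4 of the 17 and in 32.0%. The peak with the GEMIN4 window was lower by -0.62 ± 0.088 (log2, SE, n = 4 and 4 libraries, adjusted p = 3.39e-07), whereas the peak with the ATAD1 window, with a mean of 58.1 CPM (counts per 1e6 counts of the library), was at 0.03 ± 0.077 (adjusted p = 0.847, both edgeR quasi-likelihood test).

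The count table held between 14757015 and 19831471 counts per vehicle library and between 11522266 and 14355727 per sorbitol library, so the sorbitol libraries were the shallower. Of 7 genes chosen as HEK293 markers 6 had a peak within 1 kb of an end, PAX2 having none, and 5 of 12 markers of blood, liver, epithelium, endothelium and muscle did, with a median summed level of 14.9 and 0 CPM. Correlations of log CPM across all peaks were higher within the groups than between them for every pair of libraries.

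Accessibility at pseudogene ends changed in both directions after sorbitol, and about as often as in the genome at large. Of the 2065 peaks that passed the filter on low counts, 346 (16.8%) were higher and 296 (14.3%) lower at an adjusted p under 0.05, and 1423 were not called. Among all 129487 tested peaks 29.1% were called, 16.0% higher and 13.1% lower, so the counts at pseudogene ends were near the background. The median log2 fold change was -0.01 at pseudogene ends and 0.01 over all tested peaks, and single peaks ranged from -1.92 to 2.51. Changes of at least 2-fold were called upward at 132 peaks (6.39%, background 5.27%) and downward at 25 (1.21%, background 0.881%). Libraries did not overlap at 332 peaks with sorbitol above (16.1%, background 17.3%) and at 202 with sorbitol below (9.78%, background 9.47%). The split between higher and lower depended on how libraries were scaled: it was 422 to 218 with library totals and 512 to 150 with factors computed from peaks at gene ends, which moved the median of all peaks to 0.09 and 0.185. With only peaks of at least 50 mean counts it turned the other way, 130 to 223 of 948 pseudogene-end peaks, as it did over all such peaks (15.2% higher and 21.8% lower).

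The contrast with other gene ends lay in the balance of directions. At peaks within 1 kb of ends of protein-coding genes only, 856 of 12620 (6.78%) were higher and 4941 (39.2%) lower (median -0.21). At ends of long noncoding RNA genes only, 666 of 5158 (12.9%) were higher and 870 (16.9%) lower. The peaks also differed in strength, with a median of 3.07 CPM at pseudogene ends, 4.1 at long noncoding RNA ends and 16.7 at protein-coding ends. The differences between these classes are descriptions and were not tested.

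**Figure D1:**
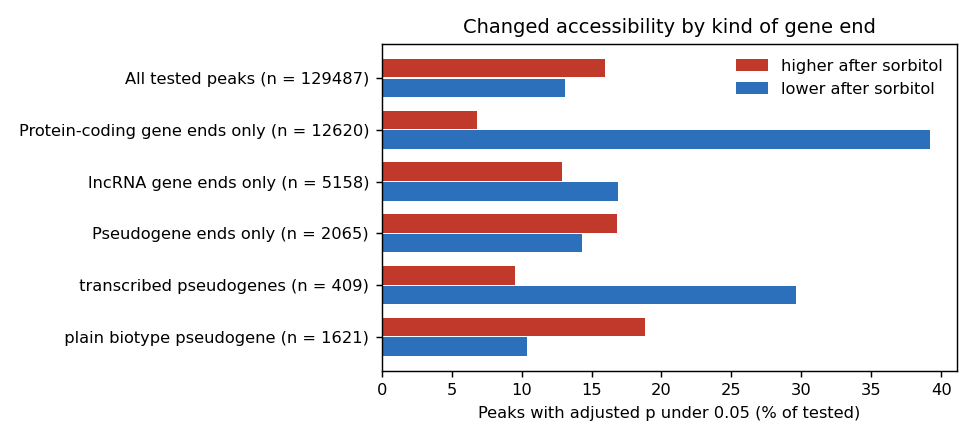
Bars give the share of tested peaks with an adjusted p under 0.05 (x axis, %), red for higher and blue for lower after sorbitol, by kind of gene end (y axis, number of tested peaks in parentheses). Pseudogene ends (16.8% higher, 14.3% lower) sit near all tested peaks, and the transcribed pseudogenes among them (9.54% and 29.6%) lie between all tested peaks and protein-coding ends.

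Pseudogenes annotated as transcribed had another balance of directions than those with the plain biotype pseudogene. At transcribed pseudogenes 121 of 409 tested peaks (29.6%) were lower and 39 (9.54%) higher (median -0.17). Peaks at plain pseudogenes, leaving out the few V segments, C regions and noncoding RNA pseudogenes, were lower at 168 of 1621 (10.4%) and higher at 305 (18.8%), with a median of 0.04. The transcribed ones hence made up 19.8% of the tested peaks and 40.9% of the lower calls. Where the end of a transcribed pseudogene lay inside the peak, 85 of 196 (43.4%) were lower and 10 (5.1%) higher, and where it lay outside 36 of 213 were lower and 29 higher. For plain pseudogenes the shares were 14.2% lower with the end inside the peak (423 peaks) and 9.02% with the end outside (1198 peaks).

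As a share of each library's counts, peaks at transcribed pseudogenes took 0.6675%, 0.6585%, 0.6608% and 0.6736% in the vehicle libraries and 0.6208%, 0.6192%, 0.6205% and 0.6167% in the sorbitol libraries. Every sorbitol library was below every vehicle library. The means were 0.665% ± 0.00684 (SD, n = 4) and 0.619% ± 0.00189 (SD, n = 4). Under factors computed from peaks at gene ends the median of these peaks was 0.01 rather than -0.17, and 68 were lower.

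Peak strength moved with these counts. After dividing the peaks into 4 equal bins by mean CPM, 25.4% of the weakest pseudogene-end peaks were higher and 3.29% lower, against 22.5% and 3.05% of all other autosomal peaks in the same CPM range. In the strongest bin, above 6.76 CPM, 12.4% were higher and 35.6% lower, against 12.3% and 32.6%. In that strongest bin 100 of 197 peaks at transcribed pseudogenes (50.8%) were lower and 10 (5.08%) higher, near the 47.6% and 5.83% of protein-coding ends of that strength. At plain pseudogenes 83 of 316 (26.3%) were lower and 54 (17.1%) higher. The bin was not matched within itself, since its peaks had a median of 22.1 CPM and 1108 bp at transcribed pseudogenes and of 11.9 CPM and 735 bp at plain ones. In the weakest 2 bins the lower shares were close, 3.03% at transcribed and 3.19% at plain pseudogenes in the first and 5.36% and 4.67% in the second. The parts that annotation, peak width and nearby promoters play in this difference were not tested.

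**Figure D2:**
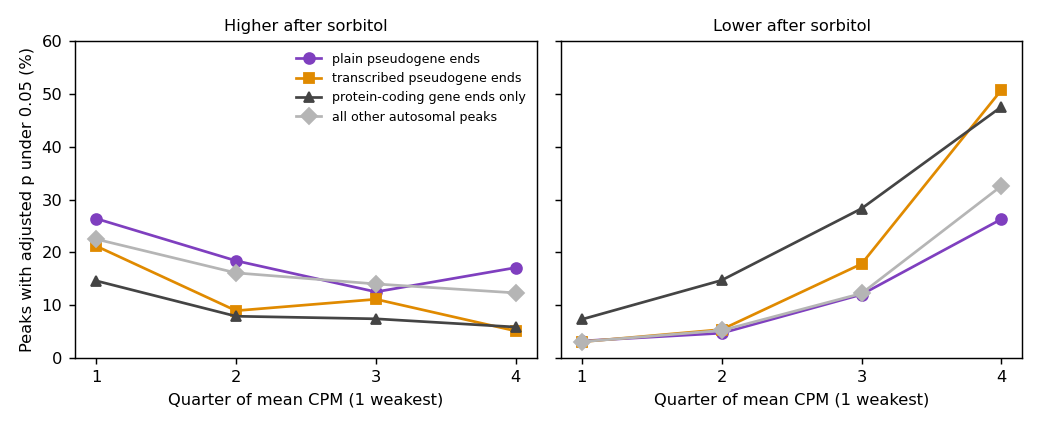
The x axis gives 4 bins of mean CPM, set on the pseudogene-end peaks from weakest (1) to strongest (4), and the y axis the share (%) of peaks called higher (left panel) or lower (right panel). In the strongest bin 50.8% of peaks at transcribed pseudogenes were lower, close to the 47.6% at protein-coding ends, and 26.3% at plain pseudogenes, which were weaker.

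Sorting by the parent shown in the symbol gave families that differed in direction. Copies of mitochondrial genes were mostly higher, peaks at U1 snRNA and transfer RNA pseudogenes tended to be lower, and the largest families (ribosomal protein, U6 and 7SL RNA pseudogenes) had a median near 0. The families were chosen with earlier results in view, so the counts are descriptions.

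**Figure D3:**
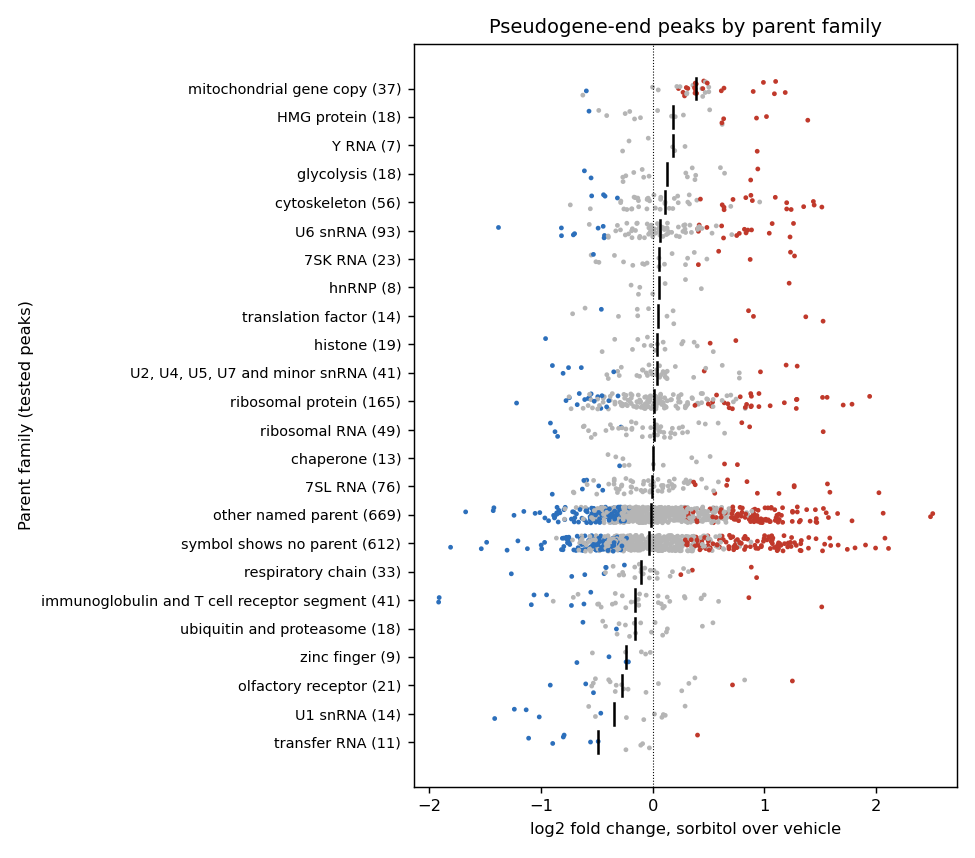
Each point is 1 tested peak, placed by its log2 fold change (x axis, sorbitol over vehicle) and by the parent family of its nearest pseudogene (y axis, number of peaks in parentheses), with random vertical spread. Red and blue mark peaks called higher and lower, grey those not called, and black bars the family medians, from 0.39 for mitochondrial gene copies to -0.49 for transfer RNA pseudogenes.

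U1 is the small nuclear RNA that recognises the 5′ splice site, and the genome holds many degenerate U1 copies. Of 14 peaks at U1 pseudogenes 5 were lower and 0 higher, with a median of -0.35, and the true U1 genes had 18 of 18 peaks lower with a median of -1.05. Together the 14 peaks held 264.6, 267.2, 267 and 252.8 CPM in the vehicle libraries and 145.2, 153, 151.4 and 156.6 CPM in the sorbitol libraries. The groups were far apart, and 2 peaks carried 78.2% of the vehicle signal.

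At RNU1-27P on chromosome 14 (34546214 to 34548082, inside the lncRNA gene LOC105370449) the vehicle libraries had 159.7, 155.5, 159.4 and 147.5 CPM and the sorbitol libraries 75.9, 81.2, 81.1 and 87.7 CPM. No sorbitol library came near the lowest vehicle library, and the log2 fold change was -1.01 ± 0.075 (SE, edgeR quasi-likelihood adjusted p = 1.33e-15). RNVU1-34, a variant U1 copy on chromosome 17 (58678884 to 58680132, overlapping TEX14, a germ cell gene, and IGBP1C), went from 53.0, 52.1, 51.1 and 44.2 CPM to 18.8, 24.7, 18.4 and 17.8 CPM. This was a change of -1.41 ± 0.095 (adjusted p = 4.26e-17, same test), the smallest p of any pseudogene-end peak, with the groups again apart. The other lower peaks were weaker: RNU1-134P fell from 6.79 ± 0.98 to 3.28 ± 0.53 CPM and RNU1-84P from 2.39 ± 0.19 to 1.07 ± 0.35 CPM (SD, n = 4 each), and RNVU1-23 from 10.5 ± 1.4 to 8.07 ± 1.6 CPM. Of the 5 lower peaks 3 contained the end of the copy. Whether reads at these peaks belong to true U1 genes was not tested.

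Other small RNA copies had both directions, although most peaks of their parents were lower or not called. U6, the catalytic snRNA transcribed by RNA polymerase III, had 93 peaks at pseudogenes, 16 higher (17.2%) and 9 lower (9.68%) with a median of 0.07. These shares were near the 16.0% higher and 13.1% lower of all tested peaks. Of 6 peaks of the true U6 genes 4 were lower and 0 higher. At pseudogenes of U2, U4, U5, U7 and the minor spliceosomal RNAs 4 of 41 peaks were higher and 5 lower (median 0.04), against 15 of 15 lower at the true genes (median -0.94). RNU5A-8P on chromosome 1 (210372535 to 210374714, within HHAT, the Hedgehog acyltransferase gene) stood out, with 95.2, 85.9, 90.3 and 78.5 CPM in vehicle and 53.4, 50.7, 46.6 and 48.4 CPM in sorbitol. It fell by 0.90 ± 0.080 on the log2 scale (edgeR quasi-likelihood adjusted p = 1.15e-12), and its groups did not overlap. RNU6-1138P, whose peak lies 720 bp from the copy and covers the SLC7A8 window printed above, had 11.2, 11.7, 13.5 and 13.2 CPM in vehicle and 6.86, 8.12, 6.50 and 8.15 CPM in sorbitol, all lower (-0.82 ± 0.13, adjusted p = 1.58e-06, same test).

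Peaks at copies of 7SL RNA, the scaffold of the signal recognition particle from which Alu elements derive, were higher at 13 of 76 and lower at 6 (median 0.00). RN7SL472P had 8.28, 8.80, 10.3 and 10.98 CPM in vehicle and 6.86, 4.94, 5.90 and 4.25 CPM in sorbitol (-0.90 ± 0.15, edgeR quasi-likelihood adjusted p = 4.12e-06), with no overlap. For 7SK RNA, which restrains the elongation factor P-TEFb, 5 of 23 copies were higher (21.7%) and 1 lower (4.35%). In a peak 915 bp outside RN7SKP254 the mean was 0.859 ± 0.29 CPM in vehicle and 2.17 ± 0.41 in sorbitol (SD, n = 4 each). Ribosomal RNA copies had 3 of 49 peaks higher (6.12%) and 4 lower (8.16%). RNA5SP179 rose from 0.527 ± 0.15 to 1.60 ± 0.32 CPM (SD, n = 4 each), with its vehicle group at the floor of the low-count filter. Of 7 Y RNA copies 1 was higher, RNY4P25, and lost its call without sorbitol replicate 2 (adjusted p = 0.0732).

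Transfer RNA pseudogenes had 6 of 11 peaks lower and 1 higher, with a median of -0.49, close to the -0.48 of the 361 peaks at true transfer RNA genes, of which 270 were lower. TRS-ACT1-1 on chromosome 6 (27293905 to 27294130) had 6.50, 6.84, 4.84 and 4.95 CPM in vehicle and 2.43, 2.71, 2.60 and 3.48 CPM in sorbitol. Its groups did not overlap (-1.11 ± 0.19, edgeR quasi-likelihood adjusted p = 7.24e-06). The exception, TRP-GGG1-1, rose from 9.27 ± 1.1 to 13.0 ± 1.4 CPM (SD, n = 4 each). The count of 6 was not stable: 1 remained called without vehicle replicate 1 or without sorbitol replicate 3, 3 without vehicle replicate 3, sorbitol replicate 1 or sorbitol replicate 2, and 1 with factors from gene-end peaks.

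Nuclear copies of mitochondrial genes had the largest share of higher peaks of any family. Symbols such as MTCO1P12 mark copies of the genes for respiratory chain subunits encoded in the organelle. Of 37 peaks at 32 such copies on 13 chromosomes, 22 (59.5%) were higher and 1 lower, the median was 0.39, and 34 had a positive log2 fold change. Summed over the 37 peaks the vehicle libraries had 4096, 3676, 2995 and 3042 CPM and the sorbitol libraries 4647, 4190, 4581 and 4315 CPM. The groups were separate but by little, because the vehicle libraries spread widely, the highest being 1.37 times the lowest. The means were 3452 ± 530 CPM in vehicle and 4433 ± 217 CPM in sorbitol (SD, n = 4 each).

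**Figure D4:**
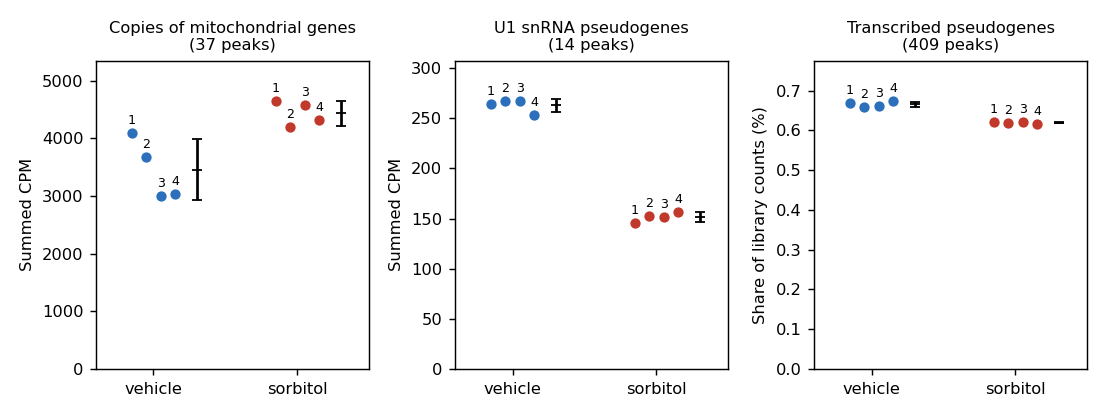
Points are the libraries (numbers are replicate numbers), with the mean and SD of each group as black bars, for the summed CPM of 37 peaks at copies of mitochondrial genes, the summed CPM of 14 peaks at U1 pseudogenes and the share of library counts (%) at the tested peaks of transcribed pseudogenes. Mitochondrial copies ranged from 2995 to 4096 CPM in vehicle and from 4190 to 4647 in sorbitol, and on this scale of library totals both other sets were lower in every sorbitol library, whereas with factors from gene-end peaks the median of the transcribed pseudogenes was 0.01.

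The strongest of all pseudogene-end peaks were among them. On chromosome 1 a single insertion of mitochondrial DNA within LOC102724250 carried 3 peaks, which together held 3403, 3048, 2510 and 2567 CPM in vehicle and 3825, 3450, 3763 and 3573 CPM in sorbitol. The peak over MTATP6P1 (633799 to 634906, also at MTATP8P1, MTCO2P12 and MTCO3P12) changed by 0.23 ± 0.071 (log2, SE, edgeR quasi-likelihood adjusted p = 0.00991). MTCO1P12 (630754 to 631426) changed by 0.27 ± 0.074 (adjusted p = 0.00386) and MTND2P28 (630246 to 630517) by 0.30 ± 0.079 (adjusted p = 0.00264, same test). The other 34 peaks held 693, 628.3, 484.6 and 475.6 CPM in vehicle and 822.1, 740.2, 818.2 and 741.4 CPM in sorbitol, so the libraries kept a similar order inside and outside the chromosome 1 insertion.

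Among the 15 mitochondrial copies with a mean of at least 10 CPM, 14 were higher and 0 lower, and the 14 lay between 0.23 and 0.46 on the log2 scale. MTCYBP43 was the exception at 0.05. The 22 weaker copies were more mixed, with 8 higher and 1 lower, MTCO1P30 at -0.59. MTND2P37 on chromosome 7 (117263255 to 117263806) had 1.91, 2.59, 1.77 and 1.90 CPM in vehicle and 6.08, 5.42, 3.82 and 4.46 CPM in sorbitol, a larger change than that of the abundant copies (1.19 ± 0.21, edgeR quasi-likelihood adjusted p = 1.28e-05). A related group, the humanin-like MTRNR2L copies of the mitochondrial 16S ribosomal RNA, which the family above does not include, had 7 of 9 peaks higher and 0 lower (median 0.42). MTRNR2L2 on chromosome 5 had 297, 264, 200 and 212 CPM in vehicle and 341, 313, 324 and 302 CPM in sorbitol (0.31 ± 0.083, adjusted p = 0.0033, same test).

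The vehicle sums split by the first number of the library name, which is 1 for replicates 1 and 2 and 2 for replicates 3 and 4 in both groups, and which the labels do not explain. Sorbitol was above vehicle within each number, from 4190 against 4096 CPM at the closest in the first to 4315 against 3042 CPM in the second. With that number as a block 21 of the 37 were higher. Vehicle replicate 3 weighed on this family. Without it 12 of 37 mitochondrial copies were higher, and MTATP6P1 (0.17, adjusted p = 0.0961), MTCO1P12 (0.20, adjusted p = 0.0548) and MTRNR2L2 (0.22, adjusted p = 0.0504) were no longer called. The table has 0 peaks on the mitochondrial genome itself, so the level of organelle reads in each library is not measured here, and the part of such reads in these peaks was not tested. The copies held 18.3% of the counts at pseudogene ends in vehicle and 22.5% in sorbitol. The share of library counts at all pseudogene ends was 1.957%, 1.885%, 1.819% and 1.865% in vehicle and 2.006%, 1.934%, 2.005% and 1.926% in sorbitol. The groups overlapped, and the mean was higher by 0.0865 percentage points in sorbitol, a direction that turned with TMM-scaled counts (-0.0239) and without peaks inside other genes (-0.0217). Without the mitochondrial copies the share was 1.54% ± 0.0212 and 1.53% ± 0.0241 (SD, n = 4 each), lower by -0.0116 points.

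Ribosomal protein pseudogenes, the largest single parent family, had 28 of 165 peaks higher and 16 lower (median 0.01). The share of higher peaks was near the 16.0% of all tested peaks, and the share of lower peaks was below their 13.1%. The peaks of the parents were lower at 37 of 80 and higher at 7 (median -0.25). Copies, with a median of 2.65 CPM, and parents were not matched for strength, and their difference was not tested. RPSAP65, a copy of the laminin receptor and ribosomal protein gene RPSA, had 0.854, 0.747, 0.807 and 0.610 CPM in vehicle and 2.78, 3.03, 3.56 and 1.88 CPM in sorbitol. The groups did not overlap (1.79 ± 0.29, edgeR quasi-likelihood adjusted p = 4.13e-06), while the 1 RPSA peak was at 0.13 and not called. Other copies of RPSA went both ways: RPSAP21 (0.88) and RPSAP53 (0.88) were higher, and RPSAP18 was lower at -1.22, the lowest value of the family. RPL30P8 (1.52) and RPL17P6 (1.56) were also higher, and RPL32P3 (-0.66) was lower.

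Copies of cytoskeletal genes were higher at 16 of 56 peaks and lower at 4, with a median of 0.11, against 1 higher and 8 lower of 16 parent peaks. ACTBP14 on chromosome 10 (69022904 to 69023888), a copy of the beta-actin gene ACTB, had 2.10, 2.36, 2.07 and 2.10 CPM in vehicle and 7.46, 6.85, 7.11 and 4.95 CPM in sorbitol. It was 1.52 ± 0.18 higher (edgeR quasi-likelihood adjusted p = 8.37e-09) with the groups far apart, while 1 of 2 ACTB peaks was lower. Copies of the keratin genes KRT8 and KRT18, which encode the paired filaments of simple epithelia, accounted for most of the family, with 11 of 35 peaks higher and 3 lower, among them KRT8P13 (1.45), KRT8P15 (1.44) and KRT18P65 (1.35).

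CFL1P1, a transcribed copy of the cofilin gene CFL1 on chromosome 10, had a peak at each of its ends, and the pair behaved differently. One (87845202 to 87846385) had 17.7, 15.5, 16.4 and 17.6 CPM in vehicle and 26.8, 31.1, 22.8 and 28.4 CPM in sorbitol, higher in all 4 (0.62 ± 0.098, edgeR quasi-likelihood adjusted p = 2.15e-06). The other is the peak with the ATAD1 window, at 55.9 ± 0.36 and 60.2 ± 2.5 CPM (SD, n = 4 each), which was not called. Both peaks of the parent CFL1 were lower, with a median of -0.65.

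Further protein families were small, with at most 19 peaks each. Higher calls made up 27.8% of high mobility group and 28.6% of translation factor copies, above the background of 16.0%. The other families described here were below it, at 10.5% to 15.4%. These shares rest on few peaks and their differences were not tested. High mobility group copies were higher at 5 of 18 and lower at 1 (median 0.19), with HMGB3P18 at 0.93. Translation factor copies were higher at 4 of 14 and lower at 1. The peak 580 bp outside EEF1A1P49, a copy of the elongation factor gene EEF1A1, was at 1.37. Glycolysis copies had 2 of 18 higher and 2 lower, and GAPDHP20 was at -0.55. Histone copies had 2 of 19 higher and 1 lower, H3P41 at -0.96. Chaperone copies had 2 of 13 higher and 1 lower, which was CCT6P1 at -0.30 (edgeR quasi-likelihood adjusted p = 0.282 with the loess offset and 0.159 with gene-end factors). The hnRNP copies had 1 of 8 higher, HNRNPA1P76 with means of 0.534 ± 0.24 and 1.39 ± 0.65 CPM (SD, n = 4 each). Its libraries overlapped, and most of its vehicle values lay below the level set by the filter's minimum count of 10. The call was lost without vehicle replicate 1 (adjusted p = 0.0619) or sorbitol replicate 3 (adjusted p = 0.103, same test).

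Several further small families had more lower than higher calls, against 13.1% lower and 16.0% higher over all tested peaks. The lower shares of the ubiquitin and proteasome (11.1%) and olfactory receptor (14.3%) copies were near that background. Respiratory chain copies of nuclear genes had 7 of 33 peaks lower and 4 higher (median -0.10). The peak 432 bp outside COX6CP7, a copy of the cytochrome c oxidase subunit gene COX6C, had 8.21, 9.03, 8.07 and 7.39 CPM in vehicle. In sorbitol it had 4.08, 3.27, 4.42 and 2.79 CPM (-1.26 ± 0.16, edgeR quasi-likelihood adjusted p = 2.3e-08). Zinc finger pseudogenes had 4 of 9 lower (44.4%) and 0 higher (median -0.24), with ZNF321P at -0.68. They were strong (median 26.6 CPM) and nearly all transcribed, and 50.8% of transcribed pseudogene ends above 6.76 CPM were lower. Immunoglobulin and T cell receptor segments, the building blocks of antigen receptors, had 8 of 41 lower and 2 higher (median -0.16), and IGHVIII-38-1 fell from 2.06 ± 0.48 to 0.579 ± 0.30 CPM (SD, n = 4 each). Ubiquitin and proteasome copies had 2 of 18 lower and 0 higher, and UBE2Q2P12 was at -0.32, a call lost with the loess offset (adjusted p = 0.125) and with gene-end factors (adjusted p = 0.101). Olfactory receptor pseudogenes had 3 of 21 lower and 2 higher, with OR10AE3P at -0.53.

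The 16 peaks with the smallest p-values, 8 in each direction, had no overlap between the groups. They were picked by the same comparison, so this follows largely from the choice and is no separate support. Over all tested peaks the groups did not overlap at 17.3% with sorbitol above and at 9.47% with sorbitol below.

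**Figure D5:**
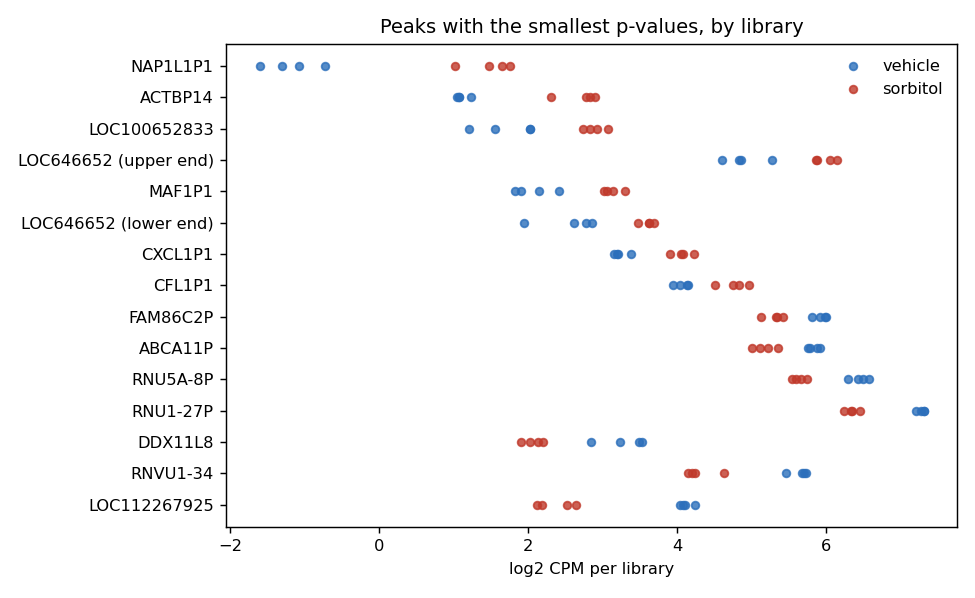
Each point is 1 library, placed by log2 CPM (x axis) for 15 of the 16 peaks with the smallest p-values (y axis, nearest pseudogene), blue for vehicle and red for sorbitol. The groups separate at each of the 15 peaks, which were picked by p in the same comparison. They run from NAP1L1P1 with the largest rise (2.51), from vehicle values below the low-count filter, to LOC112267925 with the largest fall (-1.81).

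The peak 652 bp outside NAP1L1P1 on chromosome 11 (126069253 to 126069578), a copy of the histone chaperone gene NAP1L1, had the largest rise of any pseudogene-end peak. Its vehicle libraries had 0.328, 0.402, 0.605 and 0.474 CPM and its sorbitol libraries 3.39, 2.79, 3.12 and 2.02 CPM, a log2 fold change of 2.51 ± 0.32 (SE, edgeR quasi-likelihood adjusted p = 2.43e-08). The vehicle values lay below the level set by the filter's minimum count of 10, so the peak passed only through its sorbitol libraries. Its rank, fold change and p carry that limit. The 2 peaks of NAP1L1 itself were not called, with a median of -0.11. LOC646652 on chromosome 5 lies within C1QTNF3, the gene of a secreted C1q-related protein, and carried 2 of the 8 higher peaks. The stronger (34191923 to 34193529) had 29.1, 24.3, 28.4 and 38.7 CPM in vehicle and 71.0, 58.2, 66.7 and 59.0 CPM in sorbitol (1.00 ± 0.093, adjusted p = 3.46e-12, same test). The weaker (34189819 to 34190078) was higher too, with means of 6.02 ± 1.5 and 12.2 ± 0.74 CPM (SD, n = 4 each). A peak further out (34188194 to 34188602), still in reach of the same end, was not called, at 18.1 ± 1.7 and 20.5 ± 2.6 CPM.

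CXCL1P1 on chromosome 4 (73944071 to 73944947), a copy of the chemokine gene CXCL1 that lies in the chemokine cluster, had 9.20, 9.14, 10.4 and 8.88 CPM in vehicle and 14.9, 16.6, 16.9 and 18.7 CPM in sorbitol. The log2 fold change was 0.75 ± 0.11 (edgeR quasi-likelihood adjusted p = 9.3e-07), and it was the only one of the 8 with a parent peak that was also higher, 1 of 2 CXCL1 peaks. The peak 910 bp outside MAF1P1 on chromosome 3, a copy of the gene for the RNA polymerase III repressor MAF1, lies within BFSP2-AS1. It went from 4.25 ± 0.81 to 8.78 ± 0.76 CPM, while the MAF1 peak was lower at -0.71. LOC100652833 on chromosome 5 went from 3.34 ± 0.88 to 7.45 ± 0.74 CPM (SD, n = 4 each).

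Among the lower peaks, LOC112267925 on chromosome 17 (215810 to 216394, within RPH3AL, a regulator of exocytosis) had 16.5, 16.9, 18.9 and 17.2 CPM in vehicle and 4.34, 4.54, 5.72 and 6.27 CPM in sorbitol. This was the largest fall of the 8 (-1.81 ± 0.13, edgeR quasi-likelihood adjusted p = 2.87e-16). ABCA11P, a transporter pseudogene on chromosome 4 (473438 to 474571, within ZNF721), had 55.3, 60.6, 58.6 and 54.0 CPM in vehicle and 32.1, 34.6, 40.8 and 37.2 CPM in sorbitol (-0.74 ± 0.084, adjusted p = 1.47e-09). NPEPPSP1, a copy of the aminopeptidase gene NPEPPS on chromosome 17, was the peak with the smallest p among those with some other named parent, at -0.79 ± 0.098 (adjusted p = 1.29e-08).

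Several groups of duplicated copies were picked out after their values were seen, and their counts are descriptions. Over all tested peaks 13.1% were lower and 16.0% higher. FAM86 pseudogenes, copies of a methyltransferase family spread by segmental duplication, had 5 of 10 peaks lower and 0 higher (median -0.44). FAM86C2P on chromosome 11 (67804555 to 67806450) had 63.3, 63.9, 56.4 and 60.6 CPM in vehicle and 40.4, 42.7, 34.9 and 40.3 CPM in sorbitol (-0.71 ± 0.083, edgeR quasi-likelihood adjusted p = 3.16e-09). FAM86GP, another copy on chromosome 11, fell from 77.3 ± 1.2 to 57.7 ± 4.9 CPM (SD, n = 4 each).

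DDX11L copies, related to a DNA helicase gene and lying mainly at chromosome ends, had 5 of 6 peaks lower and 0 higher (median -0.78). DDX11L8 at the start of chromosome 12 (11248 to 11637) had 11.2, 11.5, 9.38 and 7.18 CPM in vehicle and 4.08, 4.38, 3.73 and 4.597 CPM in sorbitol (-1.30 ± 0.16, edgeR quasi-likelihood adjusted p = 5.23e-09). DDX11L10 on chromosome 16 fell from 27.95 ± 1.7 to 19.98 ± 2.1 CPM, and DDX11L1, DDX11L2 and DDX11L9 were lower too. Copies in such groups can be nearly identical, so their peaks may share reads and are not independent of each other.

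Of 7 peaks at copies of the mismatch repair gene PMS2 on chromosome 7, 5 were lower (71.4%) and 0 higher. At copies of the ribosome assembly gene BMS1 3 of 8 were lower (37.5%). Their median levels were 35.8 and 12.6 CPM. Above 6.76 CPM 32.6% of other autosomal peaks and 47.6% of protein-coding ends were lower. Copies of the dynamin gene DNM1 (median 9.84 CPM) had 5 of 26 lower (19.2%) and 2 higher (7.69%). These 7 were all on chromosome 15, where nearly all of the 26 lie. By contrast the DUX4L copies, which belong to macrosatellite repeats, had 29 of 30 peaks not called (median 0.05). The REXO1L array on chromosome 8 had 4 of 17 higher (23.5%, against 16.0% of all tested peaks) and 0 lower (median 0.25).

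ROCK1P1, a partial copy of the protein kinase gene ROCK1 near the end of chromosome 18 (107869 to 109398), was the third strongest pseudogene-end peak, and its libraries were uneven. Its vehicle libraries had 420.1, 378.4, 401.5 and 622.5 CPM and its sorbitol libraries 587.1, 524.7, 616.1 and 421.2 CPM. In each group the library numbered 4 had the level of the other group, and the peak was not called (0.16 ± 0.091, edgeR quasi-likelihood adjusted p = 0.198). Without both libraries numbered 4 it was higher by 0.42 (adjusted p = 3.94e-09), a call chosen by leaving out the libraries that stand apart. It was also called without vehicle replicate 4 alone (0.33, adjusted p = 0.000444) or sorbitol replicate 4 alone (0.24, adjusted p = 0.0252). The ROCK1 peak itself was lower at -0.33.

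Values at parents and copies were set side by side where the symbol named a parent, which it did for 1043 of the tested peaks and 569 parents. Only autosomal parents and their peaks were counted, here and for the families above, so a parent on another chromosome has none. The parents' own 682 autosomal peaks were lower at 324 (47.5%) and higher at 31 (4.55%), against 39.2% and 6.78% at protein-coding ends in general. Their copies were lower at 143 (13.7%) and higher at 173 (16.6%). Where a parent had at least 1 lower peak, 82 of 511 copies (16.0%) were lower and 78 (15.3%) higher. Where a parent had peaks but none was lower, 43 of 422 (10.2%) were lower and 77 (18.2%) higher. Where a parent had no tested autosomal peak the shares were equal, 18 of 110 (16.4%) in each direction. The difference between these groups of copies was not tested. The pseudogene's end lay inside only 640 of all 2066 peaks, so a peak beside a copy need not cover copied sequence.

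Position also went with direction. Of the 782 peaks inside a gene of another biotype 162 (20.7%) were higher and 81 (10.4%) lower, against 184 (14.3%) and 215 (16.8%) of the 1283 outside such genes. Those inside were weaker (median 2.63 against 3.48 CPM) and included the strongest mitochondrial copies. The part of strength and family in this difference was not tested. Peaks whose nearest protein-coding end was within 10 kb were lower at 19.2% of 531 and higher at 13.0%, and those more than 100 kb away were lower at 38 of 363 (10.5%) and higher at 80. By chromosome, 0 of 57 pseudogene-end peaks on chromosome 16 were higher and 18 lower, where the other peaks of that chromosome were 4.89% higher and 30.5% lower. On chromosome 19, 10 of 33 (30.3%) were lower, against 49.2% of the other peaks there, and on chromosome 6, 32 of 144 (22.2%) were higher, against 23.6%.

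The 124 tested peaks in the last 100 bp inside the limit were called higher in 12.9% and lower in 12.1% (median 0.03), and the 136 peaks in the first 100 bp beyond it in 12.5% and 10.3% (median 0.00). The biotype follows the RefSeq table even where a symbol is better known as a gene: ORAI1, the calcium channel gene, is listed there as a transcribed pseudogene, and its peak fell from 33.9 ± 1.1 to 28.1 ± 0.94 CPM (SD, n = 4 each).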

How the data were processed

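ATAC-seq counts per peak for 4 vehicle and 4 sorbitol libraries were used as deposited. The count table is raw whole numbers, per its values. The submitters' processing notes list Trim Galore 0.6.10, BWA 0.7.17, SAMtools 1.22, Picard, MACS2 2.2.9.1, bedtools and DESeq2 with build GRCh38, without roles. The peak caller's settings and the handling of multiply mapped reads are not given in the sources used here. A near-identical copy can therefore gain or lose reads of its parent.

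Distances were measured to both ends of each gene in the RefSeq table (GRCh38.p14, which has no strand). All peaks were fitted at once with the edgeR 4.0.16 quasi-likelihood test (R 4.3.3, TMM factors, filterByExpr with a minimum count of 10, no covariates), with Benjamini-Hochberg adjustment over 129487 tested peaks and a threshold of 0.05. CPM is the count divided by the library's table total, times 1e6. On simulated counts with 200 peaks changed 2-fold, 127 (63.5%) were recovered with 7 false calls. Groups come from the labels, replicate numbers from the titles.

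Named peaks are the 8 with the smallest p in each direction, the 5 with the highest mean CPM and, in each parent family with at least 5 tested peaks, the one with the smallest p. Of these, 1 lower peak is not reported here. Others are named as examples chosen after their values were seen. Members, families and lists were chosen with earlier results of these data known. Alternatives changed the scaling, test (DESeq2 1.42.0), filter, threshold, block, libraries and member rule.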

Additional observations from a re-analysis of the deposited data

Results flagged for a closer look

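Among 84 groups of 4 libraries examined for the named peaks and the share of counts, 4 had 1 library far from the other 3, and chance alone flags about 1 in 20 such groups, or 4.2 here. At ACTBP14 vehicle replicate 2 had 2.36 CPM and the others 2.07 to 2.10. For RNVU1-34 sorbitol replicate 2 had 24.7 CPM and the others 17.8 to 18.8. For MTND2P37 vehicle replicate 2 had 2.59 CPM and the others 1.76 to 1.90. For HMGB3P18 sorbitol replicate 2 had 9.56 CPM and the others 6.85 to 7.11. In each of these 4 peaks the far library left the groups without overlap.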

How the results depend on the processing

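The labels give replicates 1 to 4 in both groups. Deviations of same-numbered libraries showed little or negative correlation (0.0005, 0.0066, -0.031 and -0.129). The value for number 4 was the largest in size of all vehicle and sorbitol pairs. These values show no positive pairing by number, but a correlation over all peaks cannot exclude a shared culture or batch. With the replicate number as a block 34447 peaks were called, 320 pseudogene-end peaks higher and 273 lower, with 112 transcribed lower, 21 mitochondrial copies higher, 5 U1 and 4 transfer RNA copies lower. With the first number of the library name (1 or 2) as a block, 37352 peaks were called, 336 higher and 301 lower at pseudogene ends, with no count over 1.5 times from the main one. With a mean of at least 50 counts the calls were 21608 in all, 130 higher pseudogene-end peaks and 2 lower transfer RNA copies; at an adjusted p under 0.01 they were 23275, 201 higher, 196 lower, 14 mitochondrial and 1 transfer RNA. Factors from gene-end peaks gave 150 lower, 68 transcribed and 1 transfer RNA, library totals gave 2 transfer RNA, and the DESeq2 Wald test 14 mitochondrial and 3 transfer RNA copies. Leaving out peaks inside other genes gave 184 higher, and leaving out transcribed pseudogenes 172 lower. The share difference of 0.0865 points became 0.0137 with no other end within 5 kb, -0.0217 without peaks inside other genes and -0.0239 with TMM-scaled counts. Leaving out 1 library at a time gave 30555 to 38658 calls in all, 274 to 359 higher, 238 to 312 lower, 104 to 128 transcribed, 12 to 21 mitochondrial, 4 to 5 U1, 1 to 5 transfer RNA, and 0.0657 to 0.1117 points. Higher calls were 54.9% of all calls, 67.4% with library totals, 79.5% with gene-end factors and 41.1% with a mean of at least 50 counts. The cause of these shifts was not tested, apart from fewer peaks entering under the stricter filter and member rules. Of 41 named peaks 33 kept direction and side of the threshold under every alternative run. With the loess offset ROCK1P1 was called (0.42) and HNRNPA1P76, CCT6P1 and UBE2Q2P12 were not. Depth limits the weak peaks: 1118 of 2066 had a mean under 50 counts, the median being 44.6.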
